A study of Mus musculus with 6 samples.

Results

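The 9 genes described here encode secreted or membrane-bound vascular guidance cues and their receptors: the semaphorins Sema3a, Sema3c, Sema3g and Sema6a, the slits Slit2 and Slit3, and the receptors Plxnd1, Unc5b and Robo4. They were chosen by name from guidance families, with earlier results of these data known. All 9 were among the 31053 genes in the count matrices of the 6 mouse lung libraries. Their levels were measured in endothelial cells (ECs), taken as cells with at least 2 UMIs (unique molecular identifiers, each standing for 1 captured RNA molecule) of Pecam1 and Cdh5 together. ECs were split by gates set on 4 other genes. The first was at least 10 UMIs of Eln (elastin, made by large arteries and here also high in mesenchymal cells). The others were at least 2 UMIs of Gja4 (an arterial connexin), Car4 (a marker of aerocyte capillaries) or Gpihbp1 (a marker of capillary endothelium). A cell that passed several gates was counted once, in the order Eln, Gja4, Car4, Gpihbp1.

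Class 3 semaphorins are secreted cues that signal through neuropilins and plexins, and they can repel or attract migrating cells. Plxnd1 is a plexin known for its role in endothelium and Unc5b is an endothelial receptor of netrins. Slits bind Robo receptors, among which Robo4 is known from endothelium. In the lung such cues are best known from vessel and nerve patterning.

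Of the 6 libraries, 4 came from lungs of Cxcl12DsRed/+ mice, in which DsRed replaces 1 copy of Cxcl12, taken on embryonic days (E) 13.5, 15.5 and 18.5 and postnatal day (P) 8, with cells sorted for DsRed. The other 2 were whole lungs at E18.5, labelled as a Cxcl12DsRed/+ control and a Cxcl12DsRed/DsRed null, so that all 6 carry at least 1 DsRed allele. The sort describes DsRed+ CD31+ cells without CD45 and EpCAM and also CD31- mesenchymal cells, and the study states that several lungs were mixed for each sorted suspension and that the whole-lung groups held more than 1 lung each. Each condition had 1 library, so that differences between ages or between the whole lungs were not tested and are given with intervals for counting error only.

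The targeted gene went against the whole-lung labels. Cxcl12, the chemokine gene carrying the reporter, stood at 5.31 CPM (UMIs per 1000000 UMIs of the same cells) in ECs of the library labelled control and at 557 CPM in the library labelled null. Sorted ECs held 853 CPM for E13.5, 719.9 CPM for E15.5, 1210.3 CPM for E18.5 and 1115 CPM for P8. The genotypes in the names of the deposited matrices were also the reverse of the labels. The libraries are therefore called labelled control and labelled null throughout, and any direction between them follows the labels only, so that which genotype each value belongs to is not settled.

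The sorted libraries gave 210 ECs for E13.5, 9453 for E15.5, 9119 for E18.5 and 8259 for P8, and the whole lungs labelled control and null gave 1729 and 2742. The E13.5 library stood apart, since 1.65% of its 12726 kept cells were ECs and 11427 were mesenchymal by their collagen UMIs. The libraries held 63746333 to 117522172 UMIs. The 2 whole-lung libraries shared 140 barcodes. Mesenchymal and epithelial markers were higher in the Eln gate. The summed level of 8 mesenchymal markers was 546 to 5441 CPM there over the 5 later libraries, against 11.1 to 184 CPM in the Gpihbp1 gate. All 8 were detected in every Eln gate. Cells that were mesenchymal by their collagen UMIs held Eln itself at 5458 CPM for E15.5, 7820 CPM for E18.5 and 4867 CPM for P8. The Eln gate held it at 7357, 8529 and 5278 CPM in the same order. Epithelial markers were at 93.3 to 240.3 CPM there, with the sorted libraries above the whole lungs, and at 2.06 to 33.1 CPM in the Gpihbp1 gate. Median UMIs per cell in the whole lungs labelled control and null were 13854 and 14987 in the Eln gate. They were 7549 and 8349 in the Gpihbp1 gate. Whether the marker UMIs came from other cells or from the gated cells themselves was not tested. Vein markers, a list that includes Vwf, were also higher in the Eln gate, at 532 to 1133 CPM against 101.3 to 186 CPM in the Gpihbp1 gate. The study used VWF protein as a marker of macrovessels, arteries included, so that this list does not mark veins alone. Artery markers, a list that includes Gja4, ran from 1232 to 2640 CPM in the Eln gate and from 297 to 1001 CPM in the Gpihbp1 gate. In the Gja4 gate they ran from 2079 to 3223 CPM, above the Eln gate in each of the 5 later libraries.

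The promoters of 3 members whose levels separated the gates are shown, Sema3g, higher in both arterial gates than in the Gpihbp1 gate of each library, Unc5b, highest in the Gja4 gate, and Robo4, lowest in the Eln gate. They are RefSeq sequences of build GRCm38.p6, 5′ to 3′ on the gene's strand, and the 3 longer stretches end before the first base that GENCODE M21 assigns to the gene. The short Robo4 site lies past that base, within the annotated gene but before the RefSeq start, and its capitals mark the motif described after them.
Sema3g, chr14:31217623-31217859, plus strand: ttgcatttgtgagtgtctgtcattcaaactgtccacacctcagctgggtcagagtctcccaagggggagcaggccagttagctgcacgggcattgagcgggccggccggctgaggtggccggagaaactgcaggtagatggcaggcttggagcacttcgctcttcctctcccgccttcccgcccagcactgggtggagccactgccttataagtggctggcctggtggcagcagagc
Unc5b, chr10:60831582-60831831, minus strand: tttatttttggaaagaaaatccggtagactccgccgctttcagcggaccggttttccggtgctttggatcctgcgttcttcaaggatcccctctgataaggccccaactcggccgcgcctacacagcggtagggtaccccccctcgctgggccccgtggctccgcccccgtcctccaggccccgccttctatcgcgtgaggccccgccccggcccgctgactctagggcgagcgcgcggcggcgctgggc
Robo4, chr9:37401722-37401896, plus strand: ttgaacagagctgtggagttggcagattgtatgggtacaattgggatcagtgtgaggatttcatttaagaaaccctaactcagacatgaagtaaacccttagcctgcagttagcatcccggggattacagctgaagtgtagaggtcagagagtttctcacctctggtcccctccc
Robo4 motif site, chr9:37401910-37401939, plus strand: atgagggccaggCAGGAAGcatccgtttcc

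The letters CAGGAAG (an ETS motif), AACAAT (SOX), GTGGGAA (RBPJ) and GTAAACA (forkhead) were searched on both strands in the 250 bases before the RefSeq start. Entries for 8 of the 9 members were used, Sema6a not being included. Robo4 held the ETS letters, starting 50 bases before its start, and no other match was found in the 8 windows. Of all 32851 promoter windows, 10.8% held the ETS letters, 9.42% the SOX letters, 5.42% the RBPJ letters and 3.17% the forkhead letters. The window of Robo4 had 49.6% G and C, that of Sema3g 60.4% and that of Unc5b 66.8%. In the annotation Robo4 (ENSMUSG00000032125, chr9:37401897-37415115) lies directly before Robo3, and Sema3a (chr5:13125414-13602565), Sema3c (chr5:17574281-17730268) and Slit2 (chr5:47983138-48307733) are all on chromosome 5. Slit2 overlaps 4930518C09Rik on the other strand, and no member overlaps a measured gene on its own strand.

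Sema3c, a secreted semaphorin that signals through Plxnd1 and neuropilins, had the largest change with age of the 9 members. In all ECs its level was 1.11 CPM for E13.5 (95% Poisson interval 0.13 to 4.01), 1.19 CPM for E15.5 (0.99 to 1.44), 20.0 CPM for E18.5 (18.9 to 21.2) and 407 CPM for P8 (402 to 412). The E13.5 value rests on 2 UMIs, and the 3 later intervals do not overlap. The log2 ratio without a pseudocount was 4.07 from E15.5 to E18.5 (interval 3.79 to 4.36) and 4.34 from E18.5 to P8 (4.26 to 4.43). At P8 the level was 489 CPM in the Car4 gate, 448 CPM in the Gpihbp1 gate, 419.8 CPM in the Gja4 gate and 88.5 CPM in the Eln gate. After each cell was thinned to 2000 UMIs, 42.2% of P8 ECs had a Sema3c UMI, against 3.65% at E18.5 and 0.138% at E15.5, and 63.4%, 8.47% and 0.846% before thinning. Cells of the mesenchymal gate in the same libraries had a share of 15% (9 of 60 cells), 8.37% and 6.08% after thinning. The P8 share in ECs was above that of mesenchymal cells, and the E18.5 and E15.5 shares were below it. The mesenchymal level was 83.3 CPM at P8, below that of the 3 capillary and Gja4 gates. At E18.5 it was 54.7 CPM, above the 20.0 CPM of all ECs.

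Across all genes measured at 10 CPM or more in at least 1 library of the pair, 13.7% differed by 2-fold or more between E15.5 and E18.5, where 3 of the 7 members at that level did. These were Sema3c, Sema3g and Sema6a, all higher at E18.5. Between E18.5 and P8 8.48% of genes differed by that size and Sema3c was the member that did so. Between E13.5 and E15.5 it was 7.15% of genes, and Slit3 was the 1 of 6 members past 2-fold, at 22.8 and 3.72 CPM. Cells with mesenchymal UMIs were 23.8% of E13.5 ECs and 8.00% of E15.5 ECs, and without them Slit3 was at 6.35 and 0.701 CPM, under the 10 CPM that a call needed. It was at 6.95 and 1.63 CPM without Scrublet calls.

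**Figure D1:**
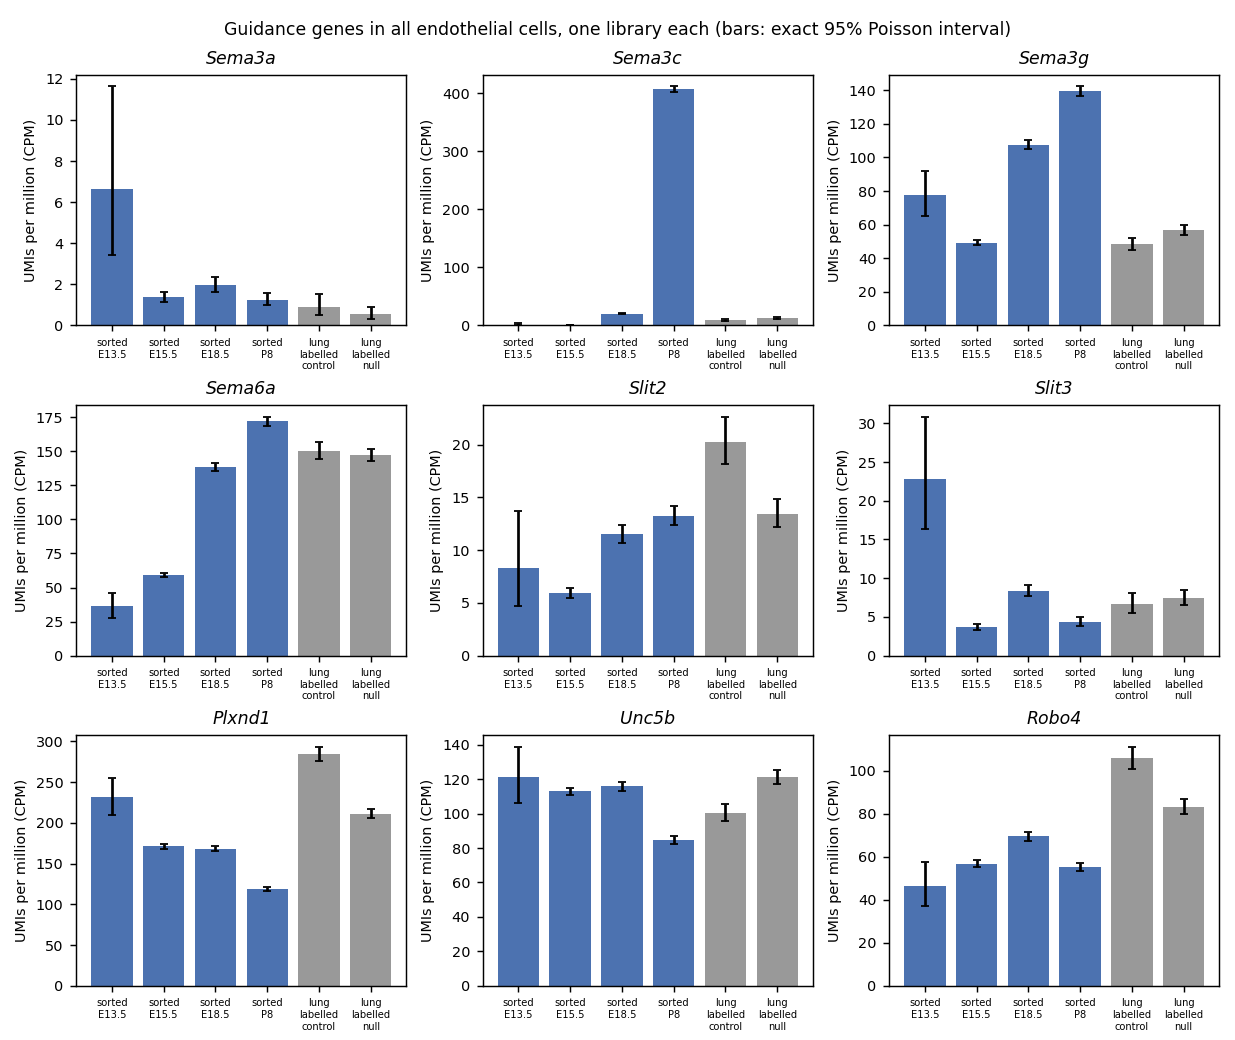
Level of each guidance gene in all ECs, in CPM on the vertical axis, for 4 sorted libraries (blue) and the whole lungs labelled control and null (grey), with exact 95% Poisson intervals. Sema3c reaches 407 CPM at P8 and is at 20.0 CPM or below in the other libraries, while Plxnd1 falls to its lowest value, 119 CPM, at P8.

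Sema3g, an endothelial semaphorin of arteries, was at 77.7 CPM for E13.5, 49.3 CPM for E15.5, 108 CPM for E18.5 and 139 CPM for P8 in all sorted ECs, and at 48.5 and 56.8 CPM in whole-lung ECs labelled control and null. In the Eln gate it stood at 81.6, 166 and 218 CPM in the E15.5, E18.5 and P8 libraries, and at 78.1 and 84.0 CPM in the whole lungs labelled control and null. In the Gja4 gate the corresponding values were 55.3, 139, 142, 96.5 and 94.2 CPM, and in the Gpihbp1 gate 12.4, 23.0, 117, 20.6 and 11.5 CPM. Both arterial gates were above the Gpihbp1 gate in each of the 5 libraries, with the smallest gap at P8. The Gja4 gate overlapped the capillary gates: 24.4% of its cells in the E15.5 library, 41.3% in E18.5, 79.7% in P8 and 64.2% and 61.1% in the whole lungs labelled control and null also passed another gate. At P8 it held Gpihbp1 itself at 1011 CPM, against 1499.5 CPM in the Gpihbp1 gate and 183 CPM in the Eln gate. The Car4 gate had the lowest level in every library that held it, 11.9 CPM at E18.5, 42.2 CPM at P8 and 4.74 (2 UMIs) and 4.45 CPM in the whole lungs. Against the Gpihbp1 gate it differed by -1.15 (SE 0.41, adjusted p = 0.0679, edgeR), and by -1.28 without P8 (adjusted p = 0.0337). The mean of the arterial gates was higher than the Gpihbp1 gate by 2.10 on the log2 scale (SE 0.28, adjusted p = 7.12e-06, edgeR quasi-likelihood test over 5 libraries with the library as a block).

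Sema6a, a transmembrane semaphorin that binds A-type plexins, was higher in each later library of sorted ECs, from 36.1 CPM in the E13.5 library and 59.4 CPM in E15.5 to 139 CPM in E18.5 and 172 CPM in P8. The 4 intervals cover counting error only and do not overlap. The E13.5 value rests on 65 UMIs, and mesenchymal cells of that library held Sema6a at 32.9 CPM. The Car4 gate had the highest Sema6a level in each library that held it, with 251 CPM at E18.5, 268 CPM at P8, 249 CPM in the whole lung labelled control and 227 CPM in that labelled null. The Eln gate was lowest in all 5 libraries, at 30.3, 56.0, 90.4, 82.4 and 94.8 CPM for E15.5, E18.5, P8, labelled control and labelled null. Levels in the Gpihbp1 gate were 58.2, 138, 154, 153 and 144 CPM in the same order. Car4 exceeded Gpihbp1 by 0.75 (SE 0.11, adjusted p = 3.25e-04, edgeR). The Eln gate was below the Gja4 gate by a log2 fold change of -1.03 (SE 0.11, adjusted p = 3.49e-07, edgeR).

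Sema3a, a repulsive secreted semaphorin, was low in ECs. Its level over all ECs was 6.66 CPM for E13.5 (12 UMIs), 1.36 CPM for E15.5, 1.96 CPM for E18.5, 1.25 CPM for P8 and 0.896 and 0.562 CPM in the whole lungs labelled control and null. None of its 3 gate contrasts passed the test, with adjusted p of 0.997 for the arterial gates against Gpihbp1, 0.555 for Eln against Gja4 and 0.130 for Car4 against Gpihbp1 (edgeR).

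Among the receptors, Unc5b was highest of the 4 gates in the Gja4 gate of each library. It stood there at 150.2 CPM in the E15.5 library, 151 CPM in E18.5, 88.9 CPM in P8 and 187 and 196 CPM in the whole lungs labelled control and null. The Eln gate held 74.3, 48.1, 63.2, 64.5 and 56.9 CPM, and the Gpihbp1 gate 40.3, 73.7, 65.7, 67.9 and 69.6 CPM, in the same order. The Gja4 gate was the higher in all 5 libraries against either, and the Eln gate was above the Gpihbp1 gate only at E15.5. ECs that passed no gate held 123 CPM at P8 (interval 102 to 146), above the Gja4 gate. They held 40.8, 97.2 and 82.9 CPM for E15.5, E18.5 and labelled control, below it. The Eln gate was below the Gja4 gate by a log2 fold change of -1.33 (SE 0.21, adjusted p = 6.80e-05, edgeR). Over the mean of both arterial gates Unc5b was higher than in the Gpihbp1 gate by 0.59 (SE 0.19, adjusted p = 0.0157, edgeR), a call that was lost when either whole-lung library was left out (adjusted p = 0.0627 without the library labelled control, 0.0554 without that labelled null), without Scrublet calls (0.0831), after thinning of cells (0.346), without a library term (0.058) and in the sorted libraries alone (0.191).

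Robo4, which is almost restricted to endothelium, had its lowest level in the Eln gate of every library: 23.5 CPM for E15.5, 23.4 CPM for E18.5, 23.8 CPM for P8 and 52.0 and 37.4 CPM in the whole lungs labelled control and null. The Gja4 gate stood at 66.6, 67.0, 54.7, 84.2 and 82.9 CPM, and the Gpihbp1 gate at 54.6, 96.7, 70.4, 127 and 101.3 CPM. Robo4 fell from the Gja4 to the Eln gate with a log2 fold change of -1.27 (SE 0.12, adjusted p = 1.30e-07, edgeR) and from the Gpihbp1 gate to the mean of the arterial gates with -0.96 (SE 0.10, adjusted p = 4.44e-07, edgeR). In the Car4 gate it was 84.0 CPM at E18.5, 72.04 CPM at P8, 121 CPM in the library labelled control and 85.8 CPM in that labelled null, and Car4 against Gpihbp1 did not pass (log2 fold change -0.05, SE 0.13, adjusted p = 0.885, edgeR).

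Plxnd1, a receptor of class 3 semaphorins, was at 232 CPM for E13.5, 171 CPM for E15.5, 168 CPM for E18.5 and 119 CPM for P8 in all sorted ECs. It was at 285 and 211 CPM in ECs of the whole lungs labelled control and null. At P8 the Eln gate held 318 CPM, the Gja4 gate 107 CPM, the Gpihbp1 gate 100.2 CPM and the Car4 gate 68.5 CPM. P8 was the only one of the 5 libraries in which the Eln gate was highest. It held 175, 154, 220 and 172 CPM in the E15.5, E18.5, labelled control and labelled null libraries, against 168, 186, 261 and 222 CPM in the Gja4 gate and 185, 156, 309 and 228 CPM in the Gpihbp1 gate. Eln against Gja4 did not pass over the 5 libraries (log2 fold change 0.19, SE 0.24, adjusted p = 0.624, edgeR), and without P8 it was -0.26 (adjusted p = 0.0686). Car4 against Gpihbp1 was -0.81 (SE 0.27, adjusted p = 0.0557, edgeR) and passed without the P8 library (-0.80, adjusted p = 8.57e-04).

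**Figure D2:**
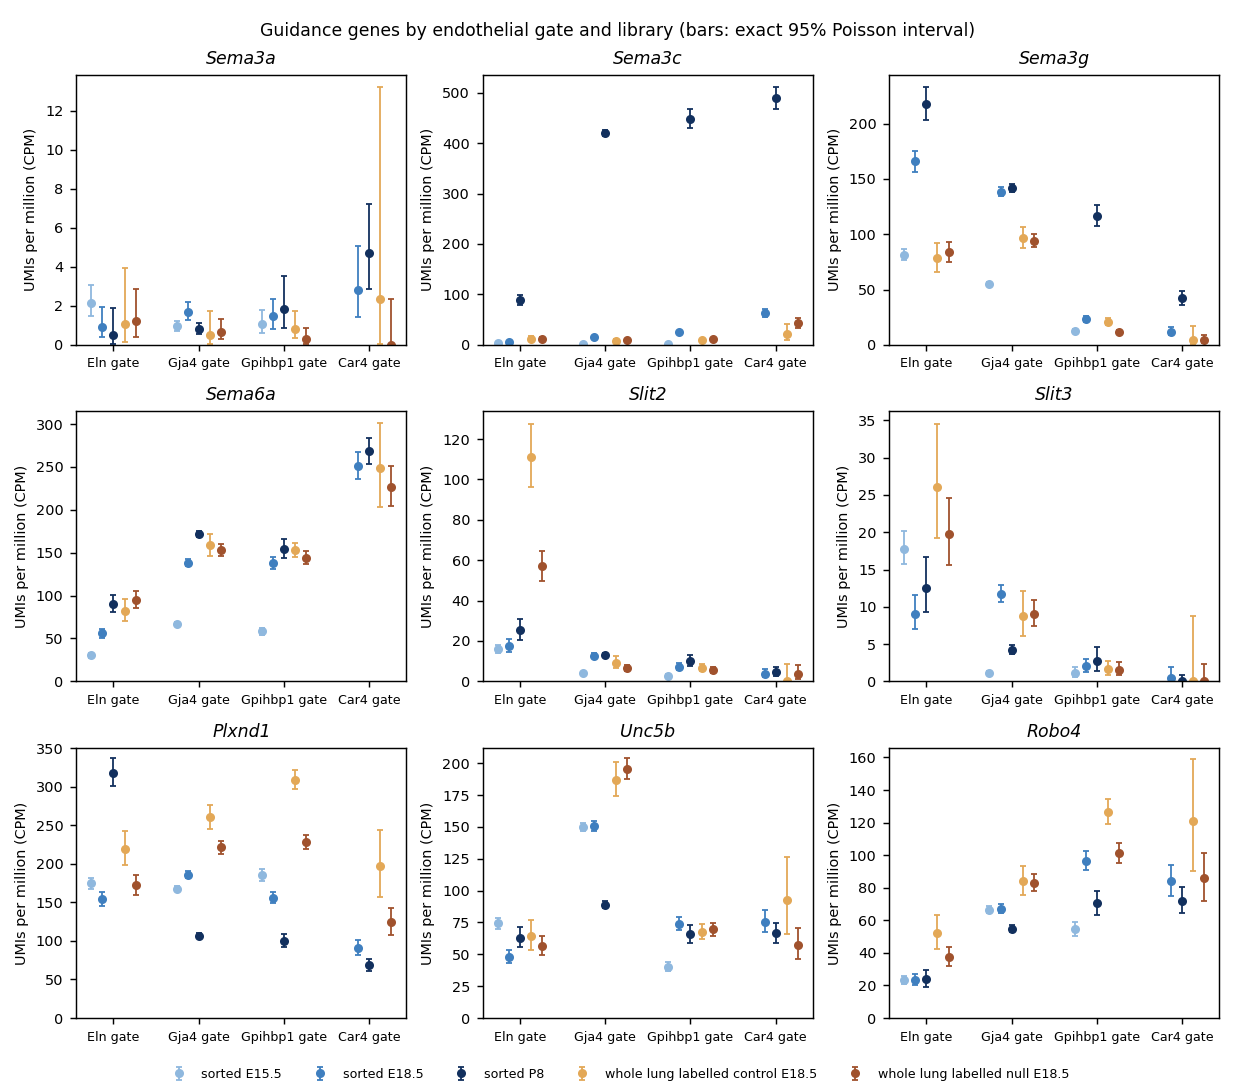
Level of each guidance gene in CPM (vertical axis) by EC gate, with 1 point per library and exact 95% Poisson intervals; the E15.5 Car4 gate held 8 cells and is left out. Sema3g is higher in the Eln and Gja4 gates, Unc5b in the Gja4 gate and Sema6a in the Car4 gate, and Robo4 is lowest in the Eln gate of all 5 libraries.

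The slits were low in ECs. Slit2, a ligand of Robo receptors, stood in the Eln gate at 16.1 CPM for E15.5, 17.5 CPM for E18.5, 25.3 CPM for P8 and 111 and 56.9 CPM in the whole lungs labelled control and null. In the Gja4 gate it was 4.27, 12.6, 13.1, 9.22 and 6.59 CPM in the same order. Slit2 was higher in the Eln than the Gja4 gate by 1.99 (SE 0.32, adjusted p = 7.88e-05, edgeR), and by 1.25 once cells with mesenchymal UMIs were left out (adjusted p = 0.00183). Slit3, a further Robo ligand, was at 17.8, 9.09, 12.5, 26.0 and 19.7 CPM in the Eln gate and at 1.14, 1.997, 2.67, 1.66 and 1.57 CPM in the Gpihbp1 gate. In the Gja4 gate it was at 1.08 CPM for E15.5, just under the Gpihbp1 gate, and at 11.8 CPM for E18.5, above the Eln gate. For P8 and labelled control it was at 4.21 and 8.73 CPM there, between those 2 gates. It was higher in the arterial gates than the Gpihbp1 gate by 2.52 (SE 0.42, adjusted p = 8.31e-05, edgeR) and by 1.99 without cells holding mesenchymal UMIs (adjusted p = 0.00137). Against the Gja4 gate the Eln gate was higher by 1.499 (SE 0.40, adjusted p = 0.00765, edgeR), and this was -0.47 without those cells (adjusted p = 0.516). The call was also lost without the E15.5 library (log2 fold change 0.91, adjusted p = 0.0511), without Scrublet calls (0.29, adjusted p = 0.775) and after thinning of cells (0.63, adjusted p = 0.300).

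Those cells moved with the Eln gate. Cells with at least 2 UMIs of Pdgfra, Pdgfrb, Tcf21, Tagln, Cnn1 and Lum were 34.6% of the Eln gate for E15.5, 12.95% for E18.5, 13.1% for P8 and 66.9% and 53.2% in the whole lungs labelled control and null, against 0.344% to 2.71% of the Gpihbp1 gate. Sema3c also depended on them. Its Eln against Gja4 difference was -0.53 with all cells (SE 0.45, adjusted p = 0.426, edgeR) and -2.18 without them (adjusted p = 7.51e-05), and for the arterial gates against Gpihbp1 it was -0.59 (adjusted p = 0.191) and -1.39 (adjusted p = 1.40e-04). The arterial difference of Sema3c also passed without the E15.5 library (-0.82, adjusted p = 0.0423), without Scrublet calls (-1.44, adjusted p = 0.00732) and after thinning of cells (-2.06, adjusted p = 2.79e-05). Its Car4 against Gpihbp1 difference was 1.19 (SE 0.43, adjusted p = 0.0711, edgeR). That difference passed without P8 (1.68, adjusted p = 0.0156) or without the E15.5 library (1.10, adjusted p = 0.0465), which had too few Car4 gate cells to be summed. Without cells holding mesenchymal UMIs that difference was 1.14 (adjusted p = 0.0132), and for Plxnd1 it was -0.78 (adjusted p = 0.0472). Slit3 also passed there, with 0 to 2 UMIs in the Car4 gate of each library, so that its size is not given. Sema3g, Sema6a, Unc5b and Robo4 kept every call they had in the arterial and Eln comparisons when these cells were left out.

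Over the 3 fitted comparisons, 4 of 9 members were called higher and 2 lower in the arterial gates than the Gpihbp1 gate at an adjusted p under 0.05, where 18.4% of the 12055 genes tested were higher, 18.7% lower and 37.2% changed in either direction. In the Eln gate against the Gja4 gate 2 members were higher and 3 lower, against 15.1% and 13% of genes, 28.2% in all. In the Car4 gate against the Gpihbp1 gate Sema6a was higher and no member lower, against 7.31% and 5.28% of genes, 12.6% in all. The median log2 fold change of the members was 0.02, 0.14 and -0.05 in the 3 comparisons and that of all genes -0.01, -0.02 and -0.03. The members were chosen with earlier results of these data known, so that these shares do not test the group.

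**Figure D3:**
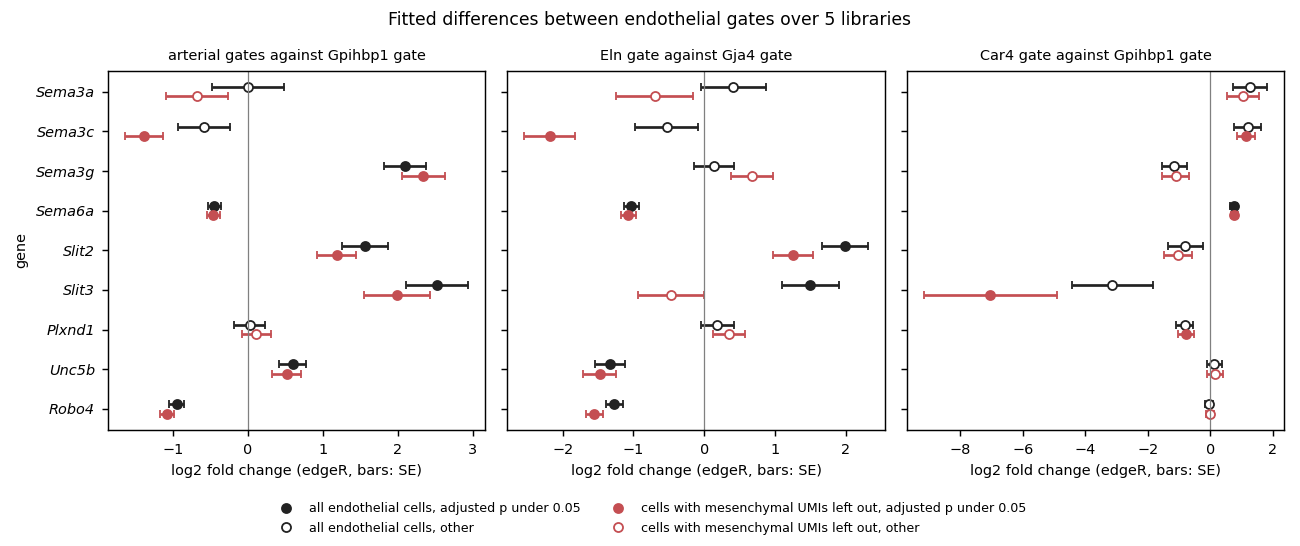
Log2 fold change (horizontal axis, bars SE) of each guidance gene in 3 comparisons between EC gates over 5 libraries, with all ECs (black) and without cells holding mesenchymal UMIs (red); filled points have an adjusted p under 0.05. The E15.5 library gave no Car4 gate sum, since that gate held 8 cells. Without those cells Slit3 in the Eln against the Gja4 gate moves from 1.499 to -0.47 and Sema3c from -0.53 to -2.18, while Robo4 and Unc5b stay below 0.

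The other guidance genes were read from a list of 61 semaphorins, plexins, neuropilins, netrins, Unc5 and Robo receptors, slits and partners, of which 60 were in the matrices. This list was also set with earlier results of these data known. Besides the members, 35 of 52 passed the filter on low counts. In the arterial gates against the Gpihbp1 gate 11 were higher (31.4%, against 18.4% of all genes) and 7 lower (20%, against 18.7%). Ntn4, a netrin of vascular basement membrane, had the largest difference of the 35 at 2.56 (SE 0.33, adjusted p = 6.09e-06, edgeR). The netrin-G gene Ntng1 followed at 2.13 (adjusted p = 5.05e-04). Without cells holding mesenchymal UMIs 8 of 34 were higher (23.5%, where 2265 of 11929 genes were) and 7 lower (20.6%, where 2526 were). Flrt1, which held 0 to 67 UMIs over all ECs of each library, passed the low-count filter only then and was called higher in this comparison and in Eln against Gja4. In the Eln against the Gja4 gate 13 were higher (37.1%, against 15.1%) and 8 lower (22.9%, against 13%), led by Sema4d at 4.13 (adjusted p = 1.11e-05), Unc5c at 3.78 (adjusted p = 1.81e-05), Rgma at 3.66 (adjusted p = 4.76e-07) and Robo2 at 3.60 (adjusted p = 3.85e-05). Without cells holding mesenchymal UMIs 10 of 34 were higher (29.4%, where 1755 of 11929 genes were) and 8 lower (23.5%, where 1640 were), Sema4d was at 4.37 and Robo2 at 2.04, and Unc5c and Rgma no longer passed the low-count filter. In the Car4 against the Gpihbp1 gate 7 were higher (20%, against 7.31%) and 4 lower (11.4%, against 5.28%). Flrt2 was lower by a log2 fold change of -3.87 (adjusted p = 0.0101) and Nrp2, the neuropilin of veins and lymphatics, by -2.24 (adjusted p = 0.00124), while Robo2 was at 2.95 (adjusted p = 0.00823) and Sema5a at 1.96 (adjusted p = 0.0113).

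The pattern of each member over the 26 library and gate sums of at least 20 cells was compared with that of 10644 genes by Pearson correlation of log2(CPM + 1), as a description, since sums share libraries and depth. Sema3g was most like Pcsk5 (r = 0.956) and Tm4sf1 (r = 0.951), Sema6a like Itpkb (r = 0.977) and Pitpnc1 (r = 0.976), and Sema3c like Fermt2 (r = 0.962) and Ncald (r = 0.958). Robo4 was most like Arhgap27 (r = 0.952) and Pcdh12 (r = 0.935), Unc5b like Efna1 (r = 0.843) and Cxcr4 (r = 0.755), and Plxnd1 like Ephb1 (r = 0.897) and Pear1 (r = 0.777). Slit2 was most like B4galt1 (r = 0.910) and Cdh4 (r = 0.862), Slit3 like Vwf (r = 0.929), and Sema3a, which rests on few UMIs in most gates, like Rexo4 (r = 0.809) and Cxadr (r = 0.748).

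In the whole lungs the members divided by cell class. Cells were clustered and classed by broad markers, giving 1731 endothelial, 4107 mesenchymal, 734 epithelial and 805 immune cells in the library labelled control and 2749, 4787, 535 and 884 in that labelled null. Sema3g, Sema6a, Plxnd1, Unc5b and Robo4 were highest in the endothelial class of both libraries. Robo4 was at 106 and 83.3 CPM there and at 8.11 CPM or less in every other class. Slit2 was highest in the mesenchymal class, at 198 and 129 CPM, and Slit3 likewise at 56.6 and 59.4 CPM, so that both ligands stood higher outside the endothelium. Sema3c was also highest there at this age, with 62.4 and 60.3 CPM against 9.79 and 12.3 CPM in the endothelial class and 11.6 and 14.3 CPM in the immune class.

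Sema3a was highest in the epithelium, at 37.9 and 38.3 CPM. Within it the cluster of alveolar type 1-like cells held 114 and 123 CPM, above the type 2-like cluster at 15.2 and 24.3 CPM. Within the mesenchyme Slit3 was highest in the adventitial fibroblast-like cluster, 145 and 147 CPM, and in the pericyte-like cluster, 117 and 124 CPM. Slit2 was highest in an unnamed mesenchymal cluster led by Inmt, 495 and 385 CPM, whose best score, 0.995, was for alveolar fibroblasts. It was next highest in a cluster that scored as alveolar fibroblast-like, 339 and 263 CPM. That cluster is not so named here because mast cell protease genes such as Mcpt2 led it. Sema3c stood at 178 and 174 CPM in the smooth muscle-like cluster and at 172 and 189 CPM in an unnamed one with Gdf10 and Wif1 among its leading genes. In the artery-like cluster Sema3g stood at 160 and 151 CPM and Unc5b at 170 and 215 CPM.

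**Figure D4:**
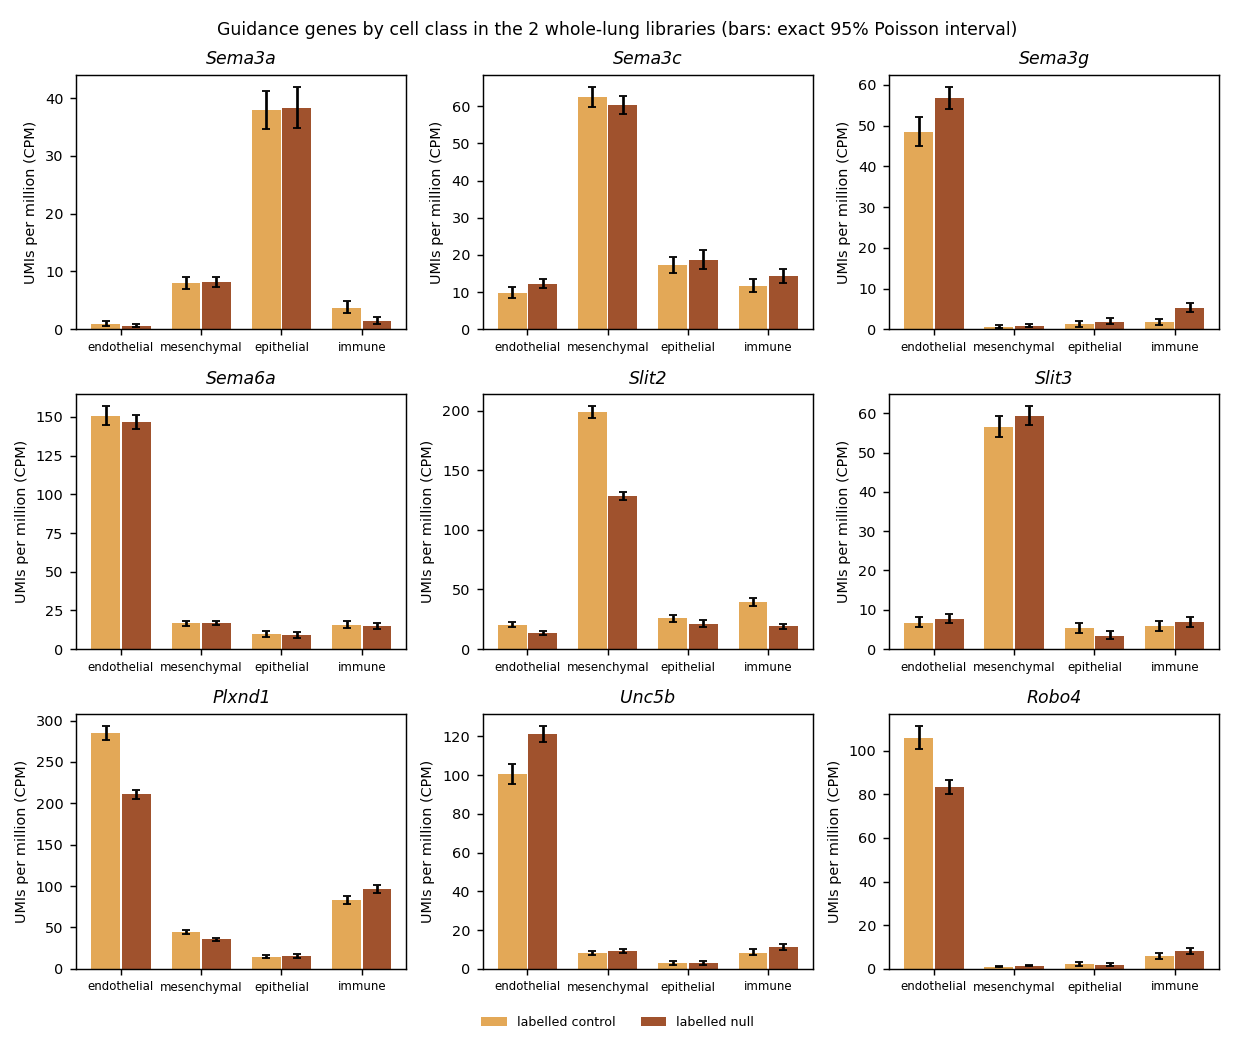
Level of each guidance gene in CPM (vertical axis) by cell class in the whole-lung libraries labelled control and null, with exact 95% Poisson intervals. The receptors and Sema3g and Sema6a are highest in the endothelial class, Sema3c, Slit2 and Slit3 in the mesenchymal class and Sema3a in the epithelial class of both libraries.

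With unadjusted counts no member differed by 2-fold or more between the whole-lung libraries in the endothelial, mesenchymal or epithelial class. Of all genes 0.477%, 1.13% and 0.559% did. In the immune class Slit2 did, at 39.2 CPM labelled control and 19.0 CPM labelled null, where 1.18% of genes did. With a pseudocount of 5 CPM it was no longer past 2-fold (log2 ratio -0.88). Slit2 was lower in the library labelled null in the mesenchymal class as well, with a log2 ratio of -0.63 without a pseudocount (counting interval -0.68 to -0.57), and in the endothelial class with -0.59 (-0.81 to -0.37). Of the 317 Slit2 UMIs of ECs labelled control, 205 came from the 127 cells of the Eln gate, and of 383 labelled null 231 came from 248 cells, gates in which 66.9% and 53.2% of cells held mesenchymal UMIs. In the Gja4 gate Slit2 was at 9.22 CPM (6.52 to 12.7) labelled control and 6.59 CPM (5.21 to 8.23) labelled null, and in the Gpihbp1 gate at 6.63 CPM (5.01 to 8.61) and 5.60 CPM (4.24 to 7.26), with overlapping intervals. Plxnd1 was lower in ECs labelled null by a log2 ratio, also without a pseudocount, of -0.43 (-0.49 to -0.38) and Robo4 by -0.35 (-0.44 to -0.26), while Unc5b was at 0.27 (0.18 to 0.36) and Sema6a at -0.04 (-0.11 to 0.04). The mix of gates differed too. The Gja4 gate was 26.7% of ECs labelled control and 43.3% labelled null, and the Gpihbp1 gate 56.3% and 37.7%. Unc5b was at 187 and 196 CPM within the Gja4 gate, 67.9 and 69.6 CPM within Gpihbp1 and 64.5 and 56.9 CPM within Eln. For Robo4 these were 84.2 and 82.9, 127 and 101.3, and 52.0 and 37.4 CPM. Plxnd1 was lower labelled null within each of these gates. How far the mix enters the ratios over all ECs was not tested. With 1 library a genotype, these ratios and library differences cannot be told apart. With values adjusted for free RNA by SoupX the endothelial Sema3c level was 1.63 CPM labelled control and 8.57 CPM labelled null, a log2 ratio after adding 0.5 CPM of 2.09 in place of 0.31. With the same adjusted values 1 of the 3 members that reached 10 CPM was past 2-fold in the epithelial class, higher in the library labelled null. The share of all genes past 2-fold was not taken for adjusted values, so that this count has nothing to be set against.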

How the data were processed

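Droplet 3′ libraries (10x Genomics) were aligned by the authors with Cell Ranger 3.1 to mm10, and Seurat 3.2.2 is also named in the processing notes. The authors deposited raw UMI counts per gene and cell for all 6 libraries and, for the whole lungs, expected counts, that is estimated counts adjusted with SoupX for free RNA. The unadjusted counts were used except where SoupX is named.

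Barcodes were used if 700 or more genes were detected and the mitochondrial share lay between 0.5% and 10%. Whole-lung cells were clustered on SoupX-adjusted values (Pearson residuals, 3000 variable genes without the guidance genes, 20 components, 20 neighbours, Louvain resolution 0.8) and classed by markers. The rule that turns marker levels into class names was set after the clusters were seen. Whole-lung ECs also had to lie in an endothelial cluster. Doublets were scored with Scrublet (scanpy 1.11.5). It found no threshold at E18.5 and P8, so the highest scores were taken there, 8.21% and 7.50% of cells, and calls were left out only as an alternative.

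UMIs were summed per library and gate over 5 libraries (E13.5 apart), leaving out sums of under 20 cells, and tested in edgeR 4.0.16 (TMM, filterByExpr, glmQLFit and glmQLFTest, library as a block) with Benjamini-Hochberg adjustment over all genes. The fit was also run on simulated counts drawn from a common profile without library differences. That is a simpler case than these data, so it does not show how the fit behaves on them. The 5 libraries differ in age, sort and label, so that p-values measure whether a difference between gates recurs over them. Levels are summed UMIs scaled to 1000000 with exact Poisson intervals, which cover counting error only, and shares are of cells. Ages and whole lungs were compared by log2 ratios after adding 0.5 CPM (ratios with an interval are without it), calling 2-fold with 10 CPM. Levels are 3′ tags and were not compared between genes. Fewer transcripts per cell and fewer expressing cells cannot be told apart in sums. Named genes were the members, the 2 most alike to each (1 of these is not reported here), and up to 4 called genes of the guidance list per comparison. Members and lists were chosen with earlier results of these data known. Alternatives included RLE scaling, DESeq2 1.42.0, other gates and filters, thinning to 3000 UMIs, and leaving out each library.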

Additional observations from a re-analysis of the deposited data

How the results depend on the processing

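The number of members called was 6 of 9 for the arterial gates against the Gpihbp1 gate and 3 without a library term, where the share of all genes called went from 37.2% to 10.8%, and 5 to 7 when each library was left out (28.1% to 38% of all genes). For Eln against Gja4 it was 5 (28.2%), and 4 to 5 when each library was left out (19.6% to 28%). For Car4 against Gpihbp1 it was 1 and changed most: 5 with DESeq2 (15.3% of all genes called, against 12.6%), 3 without a low-count filter (6.1%), 0 without a library term (0.622%), 4 without cells in more than 1 gate (17.1%), 4 without cells holding mesenchymal UMIs (12.9%), 2 after thinning (11.4%), 0 in sorted libraries alone (1.11%), and 1 to 4 when each library was left out, 2 without E15.5 (14.1%) and 4 without P8 (8.93%). Between E13.5 and E15.5 the members called went from 1 to 0 without Scrublet calls and to 0 without cells holding mesenchymal UMIs. Slit3 was then under the 10 CPM that a call needed in both libraries, and its level was still lower at E15.5. Between E15.5 and E18.5 the count went from 3 to 4 with the mean of per-cell CPM, without Scrublet calls and without cells holding mesenchymal UMIs. In the epithelial class 1 member passed with SoupX-adjusted values, and in the immune class 0 with a pseudocount of 5 CPM. For these alternatives of the level comparisons the share of all genes was not taken. The causes were not tested, except that fewer libraries were fitted where libraries were left out. Leaving out the shared barcodes, or using the EC gate alone in whole lungs, both chosen after seeing the data, moved no count of members called by more than 1.5 times.

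Of 510 alternative values of member fold changes, 441 kept direction and side of the threshold, 24 passed it newly, 15 lost it and 30 changed sign, none of these with an adjusted p under 0.05 in the main or the alternative value except Slit3. Slit3 in Eln against Gja4 was -0.47 without cells holding mesenchymal UMIs. Sema3a in the arterial comparison, -0.00266 with all cells, was 0.0153 with RLE scaling, 0.0314 with DESeq2, 0.0129 without a low-count filter, 0.24 without cells in more than 1 gate, 0.0131 with Pecam1 and Cdh5 each required, 0.00959 with SoupX, 0.0117 without shared barcodes, 0.0780 with the gate alone, and -0.24 to 0.29 when each library was left out. Plxnd1 there was -0.0499 without a library term, and -0.22 to 0.13 when each library was left out. In Eln against Gja4, Sema3a was -0.70 without cells holding mesenchymal UMIs, -0.81 without Scrublet calls and -0.0303 to 0.80 when each library was left out. Sema3c was 0.0604 with DESeq2, 0.89 without cells in more than 1 gate, 0.33 with the gate alone and -1.08 to 0.28 when each library was left out. Sema3g was -0.95 without cells in more than 1 gate, -0.0394 with SoupX, -0.17 after thinning and -0.0937 with the gate alone, and Plxnd1 -0.26 to 0.33 when each library was left out. In Car4 against Gpihbp1, Unc5b was -0.13 after thinning and Robo4 0.0207 in sorted libraries alone and -0.10 to 0.00532 when each library was left out. Depth limits Sema3a and Slit3 in the Car4 gate, which rest on 0 to 20 UMIs a library. It also limits Slit2 there, with 15 UMIs at E18.5, 20 at P8 and 0 labelled control, and Sema3g labelled control, with 2.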
